A study of Homo sapiens with 42 samples.

Results

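The messages described here encode the core of the cytosolic and mitochondrial folding machines of human cells, and they were chosen by gene symbol: HSP90AA1, HSP90AB1, HSPA8, HSPH1, HSPA9, HSPD1, HSPE1, STIP1, FKBP4 and AHSA1, 10 of the 57353 gene names in the count table. The choice was made with earlier results of these data known. All 10 passed the filter on low counts and were tested among 12939 genes. They were followed in MOLM-13, an established line of acute myeloid leukemia with a FLT3 internal tandem duplication, a change that activates this receptor kinase, whose genotype field in the labels reads WT. Poly(A) RNA was sequenced from whole-cell lysate (input) and from the heavy polysome fraction of the same treatment groups, the part of a sucrose gradient that holds messages loaded with many ribosomes. There were 7 conditions with 3 replicates in each fraction, which gave 42 libraries. In RPMI medium with serum the cells received vehicle, the FLT3 inhibitor quizartinib (AC220, 3 nM) or quizartinib with the mTOR inhibitor everolimus (10 nM), here called the combination. The same cells in hBMSC-CM (culture supernatant of HS-5, a human stromal line from bone marrow, mixed with RPMI) received vehicle, quizartinib, everolimus or the combination. All treatments lasted 12 h. The model is 1 cell line in medium that stromal cells had conditioned, with no stromal cells in the culture.

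HSP90 is an ATP-driven dimer that finishes the folding of signaling proteins such as kinases and steroid receptors, and many oncogenic kinases depend on it. HSP70 binds short hydrophobic stretches of newly made or unfolded chains in cycles of ATP hydrolysis and hands many clients to HSP90 through the adaptor STIP1 (HOP). The mitochondrial HSP70 (HSPA9, mortalin) pulls imported chains into the matrix, where HSP60 (HSPD1) and its lid HSP10 (HSPE1) enclose and fold them. FKBP4 (FKBP52) is an immunophilin of the mature HSP90 complex, AHSA1 (AHA1) speeds its ATPase, and HSPH1 (HSP105) exchanges nucleotide on HSP70.

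In GENCODE v44 on GRCh38, the human build named for the deposited table, each member is a protein-coding gene. The inducible cytosolic HSP90, HSP90AA1, is ENSG00000080824, chr14:102080742-102139699, minus strand, and its constitutive paralog HSP90AB1 is ENSG00000096384, chr6:44246166-44253888, plus strand. The constitutive cytosolic HSP70, HSPA8, is ENSG00000109971, chr11:123057489-123063230, minus strand. HSPH1 is ENSG00000120694, chr13:31134973-31162388, minus strand. The mitochondrial HSP70 HSPA9 is ENSG00000113013, chr5:138553756-138575675, minus strand. The chaperonin pair lies head to head on one chromosome, with HSPD1 (ENSG00000144381, chr2:197486584-197516737, minus strand) and HSPE1 (ENSG00000115541, chr2:197500140-197503449, plus strand) starting 539 bases apart by their canonical transcripts. Among the co-chaperones, STIP1 is ENSG00000168439, chr11:64185272-64204543, plus strand, FKBP4 is ENSG00000004478, chr12:2794970-2805423, plus strand, and AHSA1 is ENSG00000100591, chr14:77457870-77469472, plus strand.

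To show the regulatory sequence of genes that fell together under quizartinib, the 250 bases before each start site in RefSeq (GRCh38, with several sites for some genes) were searched for the heat shock element, the binding motif of HSF1, spelled as the 3 blocks GAA, TTC and GAA, or TTC, GAA and TTC, with NN between blocks, and for the E-box CACGTG, a motif bound by MYC with MAX, each on both strands. Of 10 members, 9 had a promoter in the table. FKBP4 had none. A heat shock element was in the window of 4 of these 9, HSP90AA1, HSP90AB1, HSPA8 and HSPD1, against 0.557% of the 27305 genes with a promoter in the table. The E-box was in the window of 3 of 9, HSPA9, HSPD1 and HSPE1, against 7.73% of those genes, and the HSPD1 and HSPE1 matches are the same 6 bases between the diverging genes. A CCAAT box (CCAAT or ATTGG) and a TATA box (TATAAA or TTTATA), searched the same way, were in the windows of 3 of 9 and 1 of 9, against 10102 and 3563 of the 27305 genes. A match is a description of the letters and says nothing of binding. The stretches that hold the motifs are shown 5′ to 3′ with the motif in capitals, limited to 30 bases where some transcripts annotate a UTR there. The HSP90AA1 stretch is chr14:102087045-102087294, minus strand. The HSP90AB1 stretch is chr6:44247693-44247865, plus strand, and holds 2 elements. It precedes a listed start site that lies inside the gene, downstream of the canonical start at chr6:44247101. The windows before the other listed HSP90AB1 sites, the canonical one included, hold no heat shock element. The distal HSPA8 stretch is chr11:123062353-123062386, minus strand, and the proximal one is chr11:123062171-123062200, minus strand. The HSPD1 stretch is chr2:197500061-197500090, minus strand, with 2 overlapping elements. The E-box stretch is chr5:138575403-138575432, minus strand, for HSPA9, and chr2:197500345-197500374, plus strand, for HSPE1.
HSP90AA1: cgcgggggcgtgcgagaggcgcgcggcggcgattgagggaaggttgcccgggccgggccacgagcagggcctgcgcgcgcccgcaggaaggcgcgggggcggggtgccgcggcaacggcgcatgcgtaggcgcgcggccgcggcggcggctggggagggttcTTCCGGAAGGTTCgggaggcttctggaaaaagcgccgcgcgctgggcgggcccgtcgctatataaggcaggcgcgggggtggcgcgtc
HSP90AB1: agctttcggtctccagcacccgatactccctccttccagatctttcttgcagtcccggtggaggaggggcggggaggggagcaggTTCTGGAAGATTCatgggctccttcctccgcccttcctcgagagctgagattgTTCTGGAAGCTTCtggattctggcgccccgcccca
HSPA8 distal: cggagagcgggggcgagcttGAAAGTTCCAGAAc
HSPA8 proximal: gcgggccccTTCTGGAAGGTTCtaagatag
HSPD1: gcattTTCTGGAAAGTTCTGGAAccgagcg
HSPA9: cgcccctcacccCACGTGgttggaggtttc
HSPE1: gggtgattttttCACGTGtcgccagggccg

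The libraries had total counts over genes of 19.4 M to 38.8 M, with a median of 30.2 M in the 42 libraries. The 10 members took between 0.236% and 1.03% of the counts of an input library and between 0.160% and 0.662% of a polysome library. All 8 myeloid markers examined were detected in each input library, among them SPI1 and CEBPA. Of 12 stromal markers, COL3A1, LUM, THY1 and POSTN had no count in any of the 21 input libraries. The summed stromal level in input was 2.50 to 6.72 CPM with vehicle in RPMI and 13.2 to 40.0 CPM with quizartinib in RPMI, 2.54 to 6.41 CPM with vehicle in hBMSC-CM and 10.2 to 24.8 CPM with quizartinib in hBMSC-CM. COL1A1 reached 33.0 CPM, only COL1A1 and TAGLN of the 12 passed the filter on low counts, and the part of the stromal signal in the results was not tested. The summed level of the 8 myeloid markers in RPMI was 1755 to 1872 CPM with vehicle and 2188 to 2324 CPM with quizartinib. Levels are given as CPM, counts rescaled to a common library size after TMM, so they are shares of each library, and in bulk samples less RNA per cell and fewer cells of a kind cannot be told apart. The study gives its replicates as biological. A gene is said to rise, fall or change where edgeR's quasi-likelihood test gave a Benjamini-Hochberg adjusted p under 0.05 over the 12939 genes, log2 differences carry their SE, and means carry the SD (n = 3).

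HSP90AB1 and HSPA8 were the most abundant of the 10 messages in untreated cells. Per kilobase of canonical transcript, the input level with vehicle in RPMI was 1102 ± 114 CPM per kb for HSP90AB1 and 938 ± 64.8 CPM per kb for HSPA8, and the replicates of these genes overlapped. HSP90AA1 at 409 ± 11.5 CPM per kb and HSPD1 at 369.8 ± 26.8 CPM per kb followed, again with overlapping replicates. The remaining genes were in separate steps: STIP1 at 208 ± 26.5 CPM per kb, AHSA1 at 167 ± 8.70, HSPA9 at 115 ± 7.65, FKBP4 at 68.1 ± 2.36, HSPH1 at 50.7 ± 3.14 and HSPE1 at 40.3 ± 3.44. The HSPE1 level is uncertain. Its counts ranged from 67 to 1221 in a library, 34.5% of its transcript bases also belong to the readthrough gene HSPE1-MOB4, and rows named as HSPE1 pseudogenes held 21.5% to 47.3% of the counts of gene and copies together. The HSPE1-MOB4 row itself held no count, and how reads in the shared bases were treated is not given in the sources used here. For HSPD1 the copies held 2.42% to 6.90%, and for the others at most 2.76%.

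The first question was what FLT3 inhibition did to these messages in plain medium. In input RNA all 10 fell with quizartinib in RPMI, where 34.6% of all tested genes changed and 18% fell. The median member difference was -1.84 on the log2 scale, against 0.08 over all tested genes, and the members lay between -2.77 and -1.47. The summed level of the 10 messages was 8808 ± 311 CPM with vehicle and 2585 ± 657 CPM with quizartinib. For each member the 3 quizartinib cultures were below the 3 vehicle cultures. The share of all tested genes with such a separation was not computed. All 10 calls were kept in each of the other fits and with each culture left out.

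FKBP4, the steroid receptor immunophilin, had the lowest estimate of the 10. Its input level was 243, 256 and 260.3 CPM with vehicle and 38.8, 36.9 and 35.5 CPM with quizartinib, a level 6.83-fold lower (-2.77 ± 0.16 log2, adjusted p = 1.4e-14). The treated cultures lay close to each other and far below the controls. The adaptor STIP1 was at 398, 430.5 and 508 CPM with vehicle and 133, 137 and 139 CPM with quizartinib (-1.71 ± 0.15 log2, adjusted p = 1.3e-10). The ATPase activator AHSA1 was at 232, 210.4 and 228 CPM with vehicle and 73.0, 65.0 and 53.9 CPM with quizartinib (-1.81 ± 0.19 log2, adjusted p = 2.6e-09). All 3 co-chaperones had lost most of their level in each treated culture, and whether FKBP4 differed from the others was not tested. In 518 of its 3715 canonical transcript bases FKBP4 overlaps genes of the opposite strand, and the strand setting of the counting is not given in the sources used here.

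Both cytosolic HSP90 messages fell. HSP90AA1 was at 1360.0, 1313 and 1287 CPM with vehicle and 405, 377 and 269 CPM with quizartinib (-1.91 ± 0.28 log2, adjusted p = 1.1e-06). HSP90AB1 was at 2482, 2997 and 2972 CPM with vehicle and 1389, 831 and 834 CPM with quizartinib (-1.47 ± 0.30 log2, adjusted p = 0.00019), the smallest fall of the 10. Replicate 1 of the treated group was the high one for HSP90AB1. The same culture was high for HSPA8, the main cytosolic HSP70, with 2047, 2293 and 2031 CPM under vehicle and 707, 441 and 372 CPM under quizartinib (-2.07 ± 0.28 log2, adjusted p = 4.1e-07). HSPH1, its nucleotide exchange factor, was at 284, 254 and 259 CPM with vehicle and 85.8, 71.5 and 60.8 CPM with quizartinib (-1.87 ± 0.36 log2, adjusted p = 8.1e-05).

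The mitochondrial machine fell as well. HSPA9 was at 519.8, 532 and 468 CPM with vehicle and 155, 153 and 123 CPM with quizartinib (-1.82 ± 0.22 log2, adjusted p = 3.7e-08). HSPD1 was at 899.7, 800.4 and 791 CPM with vehicle and 340.5, 214 and 201 CPM with quizartinib (-1.72 ± 0.31 log2, adjusted p = 4.2e-05). HSPE1, the lid of the same barrel, was at 20.6, 22.3 and 24.5 CPM with vehicle and 2.66, 3.49 and 3.93 CPM with quizartinib (-2.74 ± 0.40 log2, adjusted p = 1.2e-06). With the rows named as copies added to each gene, the 3 mitochondrial messages still fell.

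**Figure D1:**
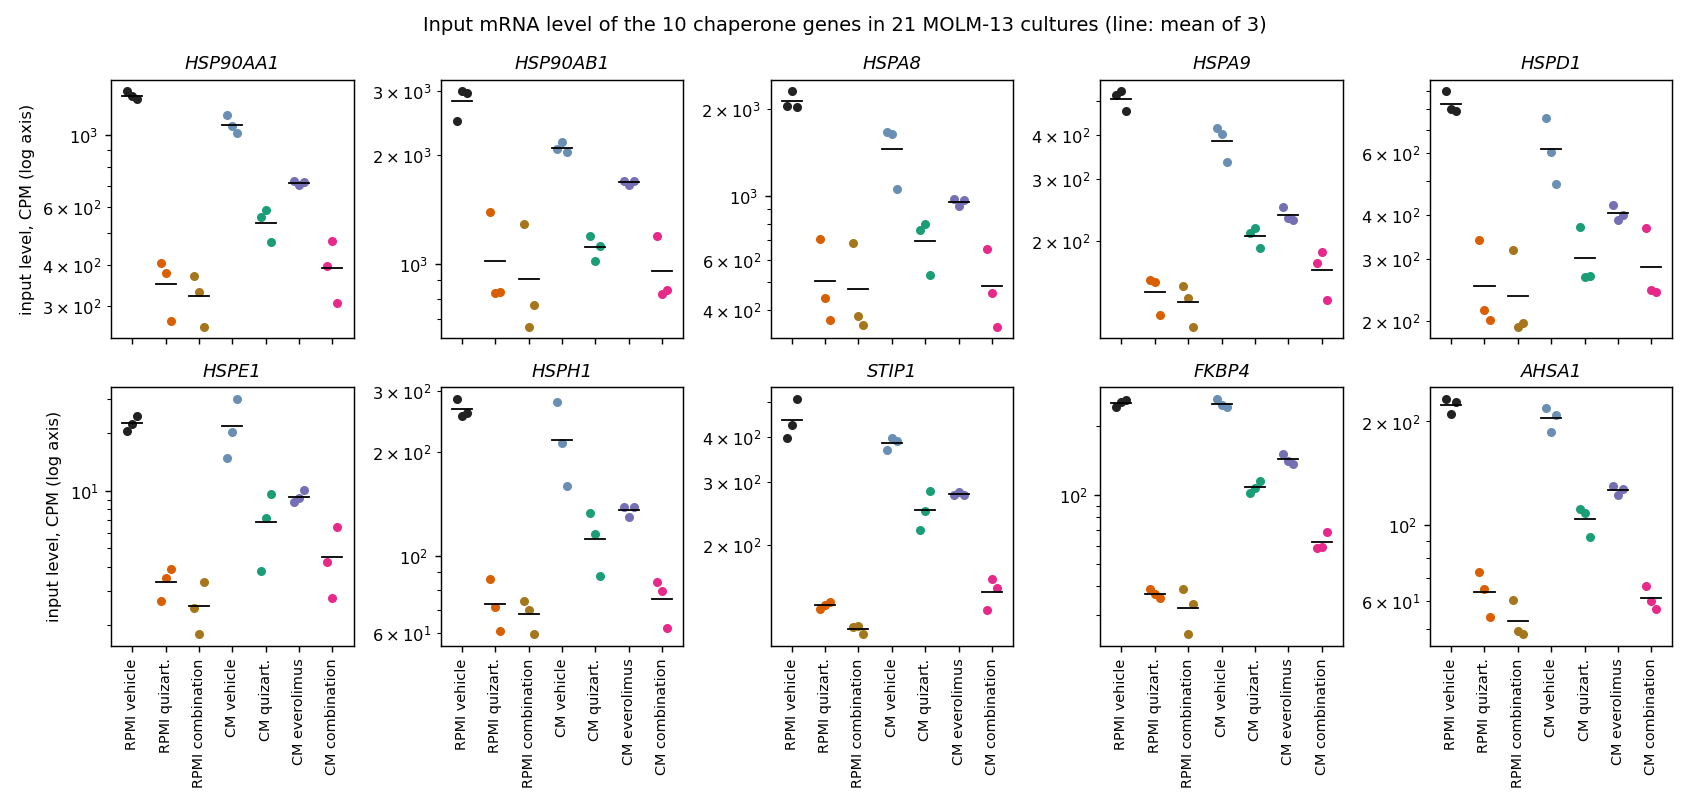
Input level in CPM (log axis, a separate range in each panel) of each of the 10 genes in the 21 input cultures, grouped by condition, where CM stands for hBMSC-CM. Points are replicates and black lines are means of 3. In every panel the 3 RPMI quizartinib points lie below the 3 RPMI vehicle points.

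In hBMSC-CM 9 of the 10 members fell with the same drug, where 12.3% of all tested genes changed and 6.84% fell. The median member difference was -0.99 log2, against 0.01 over all tested genes, with a range from -1.66 to -0.62. The summed level of the 10 messages was 6699.7 ± 655 CPM with vehicle and 3435 ± 256 CPM with quizartinib. FKBP4 was at 262, 248 and 242 CPM with vehicle and 102, 108 and 116 CPM with quizartinib (-1.21 ± 0.15 log2, adjusted p = 3.2e-06). STIP1 had the smallest fall, from 384 ± 14.5 CPM to 251 ± 31.2 CPM (-0.62 ± 0.15 log2, adjusted p = 0.0059). The STIP1 call was lost without the filter on low counts (adjusted p = 0.17). AHSA1 fell by 0.97 ± 0.19 log2 (adjusted p = 0.00062). In all 10 genes, HSPH1 included, the quizartinib cultures lay below the vehicle cultures, and here too the share of all tested genes was not computed.

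Among the chaperones in hBMSC-CM, HSPA8 (-1.06 ± 0.27 log2), HSPD1 (-1.03 ± 0.31 log2), HSPA9 (-0.90 ± 0.21 log2) and HSP90AA1 fell, with adjusted p between 0.0046 and 0.023. HSP90AA1 was at 1148, 1067 and 1015 CPM with vehicle and 559.8, 589 and 469 CPM with quizartinib (adjusted p = 0.012). HSPE1 differed by -1.66 ± 0.38 log2 (adjusted p = 0.0035) with replicates spread over 14.9, 20.3 and 30.1 CPM with vehicle. HSP90AB1 passed narrowly (-0.92 ± 0.29 log2, adjusted p = 0.036), and its call was lost when any 1 of the 6 cultures was left out and with library size as the scaling. HSPD1 lost its call without quizartinib replicate 2 or 3 or vehicle replicate 1. HSPA8 lost its call without quizartinib replicate 3, which left 6 of the 10 as fallen. HSPH1 did not pass (-0.95 ± 0.35 log2, adjusted p = 0.066), but did with the replicate number as a block (adjusted p = 0.026), under which all 10 fell, as with limma and DESeq2. Over all tested genes the block called 2678, limma 1968 and DESeq2 2061, against 1591 by edgeR without a block.

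The next question was what the conditioned medium did by itself. Without drug, no member differed between hBMSC-CM and RPMI by edgeR, limma or DESeq2, where 1.51% of all tested genes changed. No member had an unadjusted p under 0.05, which 970 of the 12939 tested genes had. The estimates of all 10 were below 0, with a median of -0.29 log2 against -0.01 over all tested genes. HSPA8 had the largest difference (-0.55 ± 0.27 log2, adjusted p = 0.67), with 1656, 1636 and 1057 CPM in hBMSC-CM and 2047, 2293 and 2031 CPM in RPMI. The FKBP4 levels of the 2 media overlapped (-0.01 ± 0.15 log2).

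With quizartinib in both media, 3 members were higher in hBMSC-CM than in RPMI, the HSP90 co-chaperones FKBP4, STIP1 and AHSA1. The share of all tested genes that changed was 8.16%, and 6.11% rose. FKBP4 was at 38.8, 36.9 and 35.5 CPM in RPMI and 102, 108 and 116 CPM in hBMSC-CM, 2.93-fold higher (1.55 ± 0.15 log2, adjusted p = 5.8e-09). STIP1 was at 133, 137 and 139 CPM in RPMI and 221, 249 and 283 CPM in hBMSC-CM (0.88 ± 0.15 log2, adjusted p = 8.8e-05). AHSA1 was at 73.0, 65.0 and 53.9 CPM in RPMI and 111, 108 and 92.3 CPM in hBMSC-CM (0.70 ± 0.18 log2, adjusted p = 0.011). For each of these genes the replicates of the 2 media did not overlap, but the share of all tested genes without overlap was not computed. AHSA1 did not pass without the filter on low counts (adjusted p = 0.12).

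The 7 chaperones themselves had estimates from 0.12 to 1.03 log2 in the same comparison, and none passed, but with a block within each fraction HSP90AA1 (adjusted p = 0.011), HSPA9 (adjusted p = 0.011) and HSPE1 (adjusted p = 0.0089) did. Over all tested genes that block called 2275 in place of 1056. HSP90AA1 was at 405, 377 and 269 CPM in RPMI and 559.8, 589 and 469 CPM in hBMSC-CM (0.62 ± 0.27 log2, adjusted p = 0.18). HSP90AB1 was at 1389, 831 and 834 CPM in RPMI and 1193, 1016 and 1115 CPM in hBMSC-CM (0.12 ± 0.29 log2, adjusted p = 0.90). The first pair of groups did not overlap, whereas the second did, with RPMI replicate 1 the highest of the 6 cultures. HSPE1 had a larger but noisier difference (1.03 ± 0.38 log2, adjusted p = 0.10), and passed with the replicate number as a block (adjusted p = 0.023), without the filter on low counts or without hBMSC-CM quizartinib replicate 1. HSPA9, HSPA8, HSPD1 and HSPH1 differed by 0.52 ± 0.21, 0.46 ± 0.27, 0.26 ± 0.30 and 0.63 ± 0.35 log2. Whether the co-chaperones differ from the chaperones in this respect was not tested.

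The difference between media in the quizartinib effect was then tested directly, as an interaction in which a positive value means a smaller fall in hBMSC-CM. FKBP4 (1.56 ± 0.22 log2, adjusted p = 2.1e-05) and STIP1 (1.09 ± 0.21 log2, adjusted p = 0.0026) passed, where 1.96% of all tested genes changed and 1.79% were higher. All 10 members had positive estimates, from 0.55 for HSP90AB1 to 1.56, and in each the 3 same-numbered sets of cultures had that sign. The share of all tested genes with such agreement was not computed. The median was 0.92 log2, against -0.04 over all tested genes. This contrast shares its quizartinib cultures with the comparison of media above. With the replicate number as a block 5 members passed, the additional ones being AHSA1 (adjusted p = 0.031), HSPA8 (adjusted p = 0.035) and HSPA9 (adjusted p = 0.040). Over all tested genes this block called 455 in place of 254. STIP1 did not pass without the filter on low counts (adjusted p = 0.11).

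**Figure D2:**
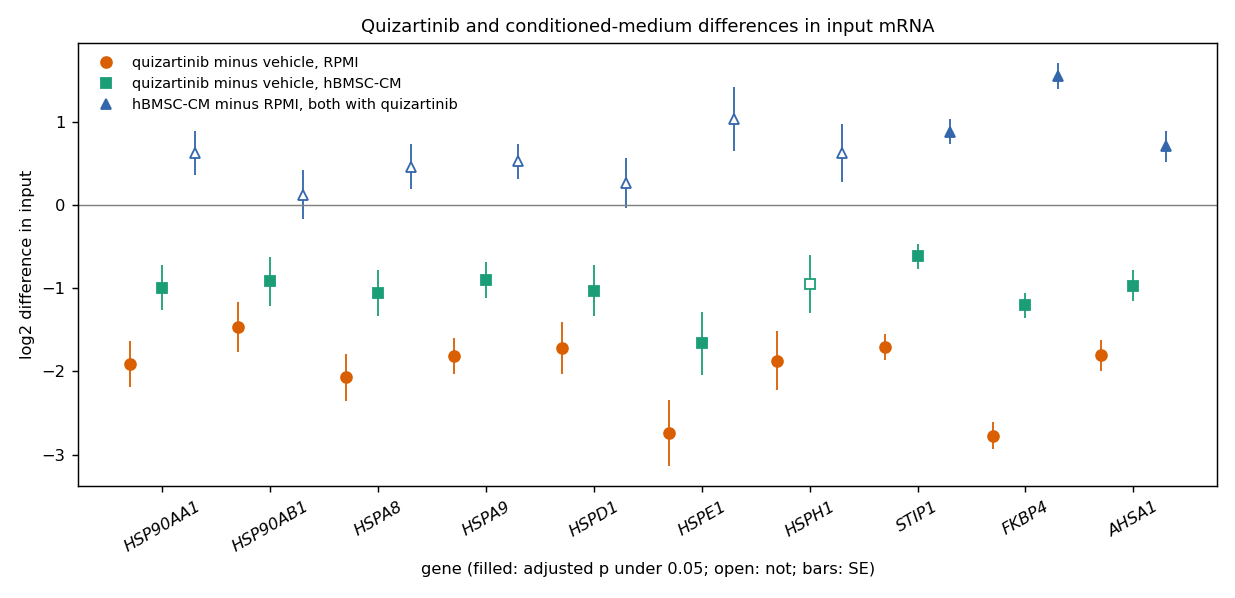
Log2 difference in input with its SE for each gene in 3 comparisons, quizartinib minus vehicle in RPMI (circles), quizartinib minus vehicle in hBMSC-CM (squares) and hBMSC-CM minus RPMI with quizartinib in both (triangles). Filled symbols passed the test. All circles are filled, and the filled triangles are STIP1, FKBP4 and AHSA1, with FKBP4 highest at 1.55.

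Everolimus was added to ask how far mTOR inhibition alters the response to quizartinib. In RPMI no member differed between the combination and quizartinib alone by edgeR, limma or DESeq2, where 0.00773% of all tested genes changed. No member had an unadjusted p under 0.05, which 172 of the 12939 tested genes had. The estimates lay between -0.42 and -0.09 log2. In hBMSC-CM, 2 of 10 fell, where 0.24% of all tested genes changed. FKBP4 was at 102, 108 and 116 CPM with quizartinib and 58.7, 59.5 and 68.6 CPM with the combination (-0.80 ± 0.15 log2, adjusted p = 0.013). STIP1 was at 221, 249 and 283 CPM with quizartinib and 133, 161 and 152 CPM with the combination (-0.75 ± 0.15 log2, adjusted p = 0.019). In both genes the 3 combination cultures were below the 3 quizartinib cultures, a separation whose share over all tested genes was not computed.

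AHSA1 had a similar difference that did not pass (-0.76 ± 0.18 log2, adjusted p = 0.073), with 111, 108 and 92.3 CPM and 66.6, 60.2 and 57.0 CPM, and passed with the replicate number as a block (adjusted p = 0.013). The 7 chaperones had estimates from -0.62 to -0.08 log2 and none passed. The calls of FKBP4 and STIP1 depended on single cultures and on the filter. Neither passed without the filter on low counts, where FKBP4 had an adjusted p of 0.22, with only the compared groups in the fit, or without combination replicate 1 or quizartinib replicate 2 or 3. FKBP4 alone was lost without combination replicate 2, and STIP1 alone with library size as the scaling. Whether the added everolimus acted differently in the 2 media was not tested.

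Everolimus alone, against vehicle in hBMSC-CM, lowered 1 member, FKBP4, where 0.41% of all tested genes changed. FKBP4 was at 262, 248 and 242 CPM with vehicle and 150.4, 141 and 137 CPM with everolimus (-0.81 ± 0.15 log2, adjusted p = 0.0063). The call was lost without everolimus replicate 2 (adjusted p = 0.084) or replicate 3 (adjusted p = 0.089) and without the filter on low counts. All 10 estimates were below 0, with a median of -0.64 log2 against -0.02 over all tested genes. In all 10 the everolimus cultures lay below the vehicle cultures, but the share of all tested genes without overlap was not computed. Those that did not pass included AHSA1 (-0.69 ± 0.18 log2, adjusted p = 0.081), HSPA9 (-0.70 ± 0.21 log2, adjusted p = 0.15) and HSPE1 (-1.22 ± 0.37 log2, adjusted p = 0.16). AHSA1 passed with DESeq2 (adjusted p = 0.033), with library size as the scaling (adjusted p = 0.031) and with a mean of at least 10 CPM (adjusted p = 0.032). It also passed with only the compared groups (adjusted p = 0.048), and HSPE1 passed without the filter on low counts. A block on replicate numbers called AHSA1 (adjusted p = 0.017), HSPE1 and HSPA9, and 244 of all tested genes in place of 53. However, the replicate numbers did not pair the everolimus and vehicle cultures, whose deviations from group means had a median correlation of -0.011. Nothing is concluded from these block calls. The summed level of the 10 messages was 4677 ± 94.7 CPM with everolimus and 2635 ± 457 CPM with the combination in hBMSC-CM, and 2345 ± 657 CPM with the combination in RPMI. These comparisons share the hBMSC-CM vehicle and quizartinib cultures with those above. The everolimus replicates were closer to each other than those of any other group. Whether these cultures were handled apart from the vehicle cultures was not tested.

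**Figure D3:**
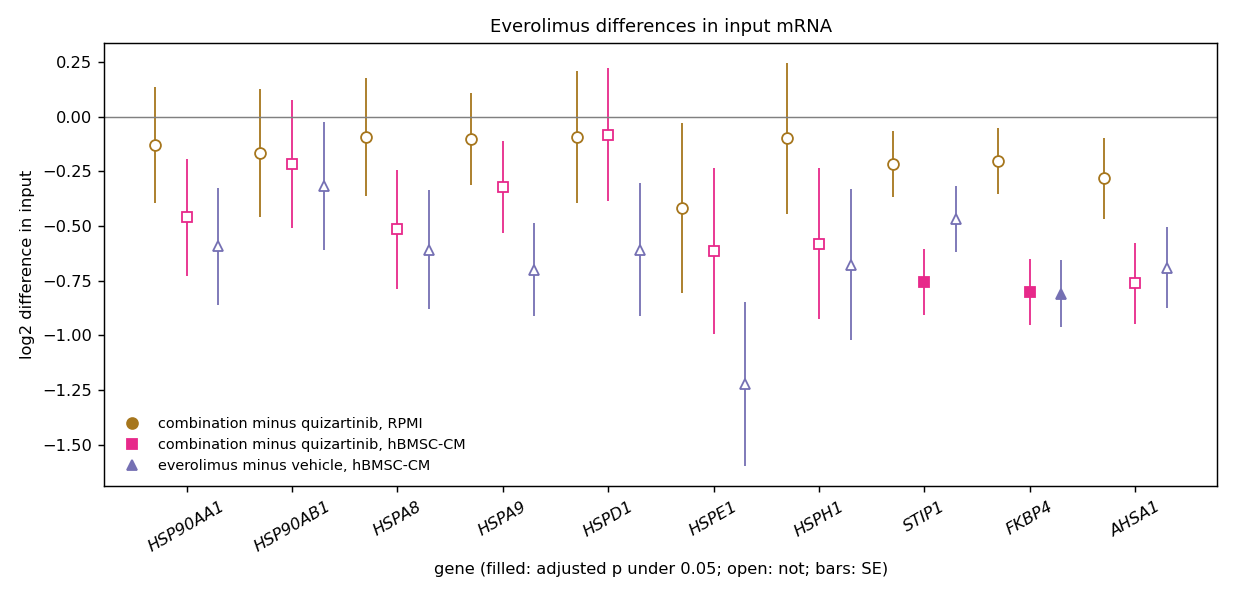
Log2 difference in input with its SE for each gene when everolimus was added to quizartinib in RPMI (circles) or hBMSC-CM (squares), or given alone in hBMSC-CM (triangles). Filled symbols passed the test. The filled symbols are STIP1 and FKBP4 for the combination and FKBP4 for everolimus alone, between -0.81 and -0.75.

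The polysome libraries asked a further question, which of these messages were carried on many ribosomes. Within each condition the heavy polysome level was compared with the input level, with a positive difference meaning a higher share in polysomes. The co-chaperones FKBP4, AHSA1 and STIP1 were higher in polysomes than in input in all 7 conditions. HSPH1, HSPA9 and HSPD1 were lower in polysomes in all 7. HSP90AB1 and HSPA8 differed in none. The counts of members that differed were 8, 6 and 6 of 10 with vehicle, quizartinib and the combination in RPMI, and 7, 7, 8 and 7 of 10 with vehicle, quizartinib, everolimus and the combination in hBMSC-CM. Most genes differed between the fractions, namely 65.4%, 57.9% and 59.3% of all tested genes in the 3 RPMI conditions and 63.6%, 58.7%, 58.6% and 63% in the 4 hBMSC-CM conditions, in the same order. The member counts lie near these shares, so the values by member are described in what follows.

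The 3 co-chaperone messages had positive polysome differences in all 21 pairs of polysome and input libraries of the same replicate number. The labels do not say that such a pair is 1 culture. Deviations from group means correlated over 0.1 in every pair only with vehicle and quizartinib in RPMI and with vehicle in hBMSC-CM. For FKBP4 with vehicle in RPMI, polysome minus input in log2 CPM was 1.75, 1.56 and 1.20 in the 3 pairs, and with vehicle in hBMSC-CM it was 1.60, 1.71 and 1.55. Over the 7 conditions the fitted difference of FKBP4 ran from 1.31 to 1.62 log2, that of AHSA1 from 1.21 to 1.47 and that of STIP1 from 0.55 to 1.42. STIP1 had the widest range of these, with 0.55, 0.56 and 0.55 under everolimus and 1.56, 1.04 and 1.60 under the combination in RPMI.

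HSPH1 was the member most depleted from heavy polysomes. Its difference was -2.62, -2.75 and -2.64 log2 with vehicle in RPMI, and the fitted values ran from -1.56 to -2.67 log2 over the 7 conditions. HSPA9 ran from -0.63 to -1.65 log2 and HSPD1 from -0.93 to -1.58 log2. Of the 3 members that encode matrix proteins, HSPA9 and HSPD1 lay on the same side. HSPE1, the lid of HSPD1, had positive estimates in all 7 conditions (0.34 to 0.94 log2). HSPE1 passed in RPMI with vehicle (adjusted p = 0.0498, replicates overlapping) and in hBMSC-CM with everolimus (adjusted p = 0.030), and both calls were lost with library size as the scaling or with a stricter count filter. The everolimus call was also lost without any 1 of its 3 replicates (adjusted p = 0.11, 0.085 and 0.13). The call in RPMI was also lost without replicate 2 (adjusted p = 0.18) or replicate 3 (adjusted p = 0.25), with the rows named as copies added (adjusted p = 0.064) and with a block within each fraction (adjusted p = 0.11). In RPMI with quizartinib, the HSPD1 call was lost without quizartinib replicate 1 or 2, as was that of HSPA9. The HSPD1 call in hBMSC-CM with quizartinib was lost without replicate 1 or 2, and the HSPA9 call in RPMI with the combination without replicate 2.

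Of the cytosolic HSP90 paralogs, HSP90AA1 was lower in polysomes with vehicle in RPMI (-1.36 ± 0.27 log2, adjusted p = 6.4e-05) and in the 4 hBMSC-CM conditions, where 2 of the calls depended on single cultures, whereas HSP90AB1 stayed between -0.19 and 0.37 log2. HSPA8 stayed between -0.18 and 0.38 log2. For HSP90AA1 with quizartinib in RPMI the same-numbered pairs ranged from depletion to enrichment, -0.87, -1.15 and 0.69 log2, and the gene did not pass (-0.35 ± 0.27 log2, adjusted p = 0.26). Without replicate 3 it did, at -1.11 log2 (adjusted p = 0.0017). In hBMSC-CM with quizartinib its call was lost without replicate 1 or 2, with the culture as a block (adjusted p = 0.066), with only the compared groups (adjusted p = 0.069) and without the filter on low counts (adjusted p = 0.050). In hBMSC-CM with the combination it was lost without replicate 2. Replicate 3 had the highest difference of the 3 same-numbered pairs in 6 of 7 conditions for HSP90AA1 and in 5 of 7 for HSP90AB1, HSPD1 and HSPH1, but in 0 of 7 for FKBP4 and AHSA1. What sets replicate 3 apart was not tested.

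Scaling by library size alone, without TMM, moved the median polysome difference of all tested genes to between -0.63 and -0.22 log2. STIP1 then did not pass in 3 conditions and HSP90AB1 passed as lower in polysomes with vehicle in RPMI (-0.75 log2, adjusted p = 0.040). Relative to that median STIP1 stayed between 0.58 and 1.37 log2, FKBP4 between 1.26 and 1.73 log2 and AHSA1 between 1.22 and 1.41 log2. HSPH1 stayed between -2.61 and -1.51 log2 relative to it.

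**Figure D4:**
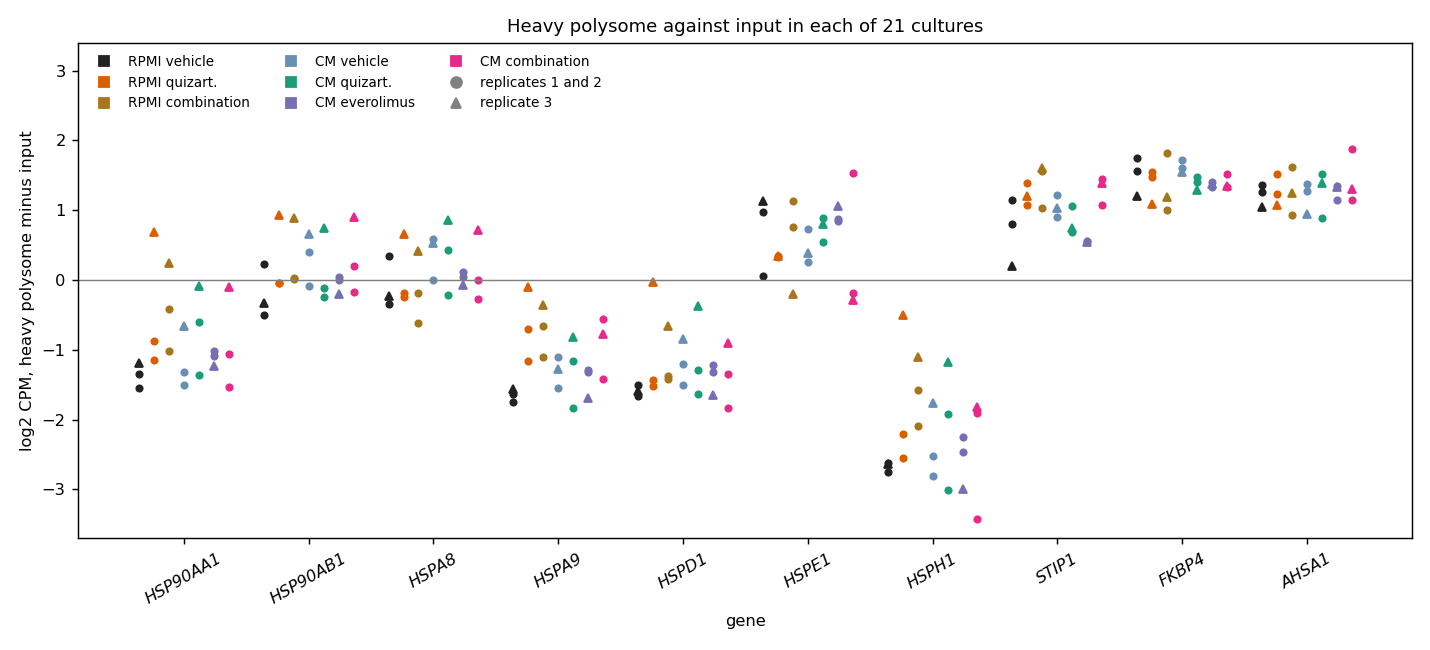
Heavy polysome minus input in log2 CPM (vertical axis) for each gene in each of the 21 pairs of libraries with the same replicate number, coloured by condition, where CM stands for hBMSC-CM. Circles are replicates 1 and 2 and triangles are replicate 3. All points of STIP1, FKBP4 and AHSA1 lie above 0 and all points of HSPA9, HSPD1 and HSPH1 lie below 0.

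A last set of comparisons asked whether drug or medium altered the share of a message in polysomes beyond the change in input, as an interaction of fraction with treatment. Since each library was scaled to a common size, a loss of polysomes shared by all messages would not show in these values. With quizartinib in RPMI no member passed by edgeR, limma or DESeq2, where 1.55% of all tested genes changed. At an unadjusted p under 0.05 there were 4 of the 10 members and 2014 of the 12939 tested genes. The estimates lay between -0.48 for HSPE1 and 1.11 for HSPH1, with a median of 0.49 log2 against 0.15 over all tested genes. HSPA9 came closest (1.02 ± 0.30 log2, adjusted p = 0.077), with a polysome minus input of -1.63, -1.75 and -1.56 with vehicle and -0.71, -1.16 and -0.09 with quizartinib, which did not overlap. It passed with the replicate number as a block (adjusted p = 0.022) and without quizartinib replicate 2 (adjusted p = 0.049). HSP90AA1 (1.01 ± 0.38 log2, adjusted p = 0.18) and HSPH1 (1.11 ± 0.49 log2, adjusted p = 0.26) had differences of similar size and larger spread, with replicate 3 of quizartinib as the high culture in both. FKBP4 (-0.13 ± 0.21 log2) and AHSA1 (0.08 ± 0.26 log2) were near 0.

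In the other 7 comparisons of this kind no member and no tested gene changed by edgeR, a share of 0% in each, and limma and DESeq2 called no member either. Over all tested genes limma called 0 in each and DESeq2 0 to 20, and 93 to 624 genes had an unadjusted p under 0.05. At an unadjusted p under 0.05 there were 2 members in the difference between media in the quizartinib effect, 1 each for the combination and for everolimus alone in hBMSC-CM, and 0 in the other 4. STIP1 under everolimus in hBMSC-CM had an estimate of -0.50 ± 0.21 log2 (adjusted p = 1.00), with 0.55, 0.56 and 0.55 log2 under everolimus and 1.22, 0.91 and 1.03 under vehicle, which did not overlap. The SE of these estimates was 0.21 to 0.75 log2 over all members and comparisons, which bounds what 3 cultures can show. The FKBP4 polysome level itself was 817, 755 and 598 CPM with vehicle and 108, 108 and 75.3 CPM with quizartinib in RPMI.

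Messages that work in pairs were compared as ratios of counts within a library, which do not depend on scaling and are not corrected for length. The log2 ratio of HSP90AA1 to HSP90AB1 in input was -1.09 ± 0.19 with vehicle and -1.52 ± 0.33 with quizartinib in RPMI, and -0.96 ± 0.09 and -1.04 ± 0.24 in hBMSC-CM. The replicates overlapped in all 3 comparisons of this ratio. In polysomes the ratio was lower, at -2.25 ± 0.35 with vehicle and -2.24 ± 0.36 with quizartinib in RPMI. The log2 ratio of HSPD1 to HSPE1 in input was 5.21 ± 0.22 with vehicle and 6.21 ± 0.70 with quizartinib in RPMI, groups that did not overlap (difference 1.00, exact two-sided permutation p = 0.1, the smallest that 3 against 3 allows). Over the 6 ratio comparisons the exact permutation p ran from 0.1 to 0.6, and each adjusted value was 0.6. The ratio difference was 1.02 with the rows named as copies added.

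Other parts of the folding network were described by 4 lists. With quizartinib in RPMI, 10 of 15 genes of the cytosolic chaperonin TRiC and its partner prefoldin fell and none rose, with a median of -1.18 log2. CCT5 (-1.81 ± 0.21, adjusted p = 3.1e-08) and CCT2 (-1.76 ± 0.20, adjusted p = 9.1e-09), both ring subunits of TRiC, had the largest falls among these. Of 18 mitochondrial chaperones and proteases, 12 fell and none rose (median -1.13 log2), led by TRAP1, the mitochondrial HSP90 (-2.06 ± 0.44, adjusted p = 0.00034), and PHB, prohibitin (-1.87 ± 0.24, adjusted p = 2.0e-07). Of 25 tested genes of the cytosolic HSP70 system, 11 fell and 1 rose (median -0.57 log2). The J-domain protein DNAJA1 (-1.53 ± 0.21, adjusted p = 5.7e-07) and the HSP110 family member HSPA4L (-2.14 ± 0.54, adjusted p = 0.0020) had the largest falls, and the gene that rose was DNAJB2, another J-domain protein (2.40 ± 0.30, adjusted p = 6.6e-08). Of 16 tested further HSP90 co-chaperones, 4 fell and none rose (median -0.41 log2), among them NUDC (-1.59 ± 0.20, adjusted p = 7.6e-08) and the phosphatase PPP5C (-1.40 ± 0.22, adjusted p = 5.2e-06). Against 34.6% of all tested genes, these counts are 66.7%, 66.7%, 48.0% and 25.0% of the tested list members in that order.

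Between the media under quizartinib the list genes that changed were higher in hBMSC-CM: 2 of 16 HSP90 co-chaperones, 1 of 25 in the HSP70 system, 3 of 15 in TRiC and prefoldin and 1 of 18 mitochondrial genes. Of all tested genes 8.16% changed and 6.11% rose. FKBP5, the immunophilin paralog of FKBP4 and a glucocorticoid-responsive gene, rose (0.84 ± 0.17, adjusted p = 0.00082), as did NUDC (0.60 ± 0.19, adjusted p = 0.047). DNAJA1 (0.73 ± 0.21, adjusted p = 0.023), CCT5 (0.70 ± 0.21, adjusted p = 0.028), CCT3 (0.66 ± 0.16, adjusted p = 0.0068) and the mitochondrial HSP70 nucleotide exchange factor GRPEL1 (1.00 ± 0.27, adjusted p = 0.013) were the others named by the rule. With quizartinib in hBMSC-CM, 2 of 16 HSP90 co-chaperones, 3 of 25 genes of the HSP70 system, 7 of 15 of TRiC and prefoldin and 8 of 18 mitochondrial genes fell, and 1 of 25 in the HSP70 system rose, where 12.3% of all tested genes changed and 6.84% fell. In the interaction of medium and drug 1 of 15 genes of TRiC and prefoldin and 1 of 18 mitochondrial genes were higher, as were 1.79% of all tested genes. No list gene changed in the other 4 input comparisons, where 0.00773% to 1.51% of all tested genes changed. Nor did any in the 8 comparisons of polysome relative to input, where 0% to 1.55% of all tested genes changed. Between the fractions with vehicle in RPMI, 11 of 18 mitochondrial genes were higher in polysomes and 6 lower (median 0.94 log2), and 8 of 16 HSP90 co-chaperones were higher and 6 lower (median 0.50 log2). Of 25 genes of the HSP70 system, 7 were higher and 9 lower (median -0.24 log2), and of 15 genes of TRiC and prefoldin, 4 were higher and 3 lower (median -0.23 log2), where 65.4% of all tested genes differed.

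**Figure D5:**
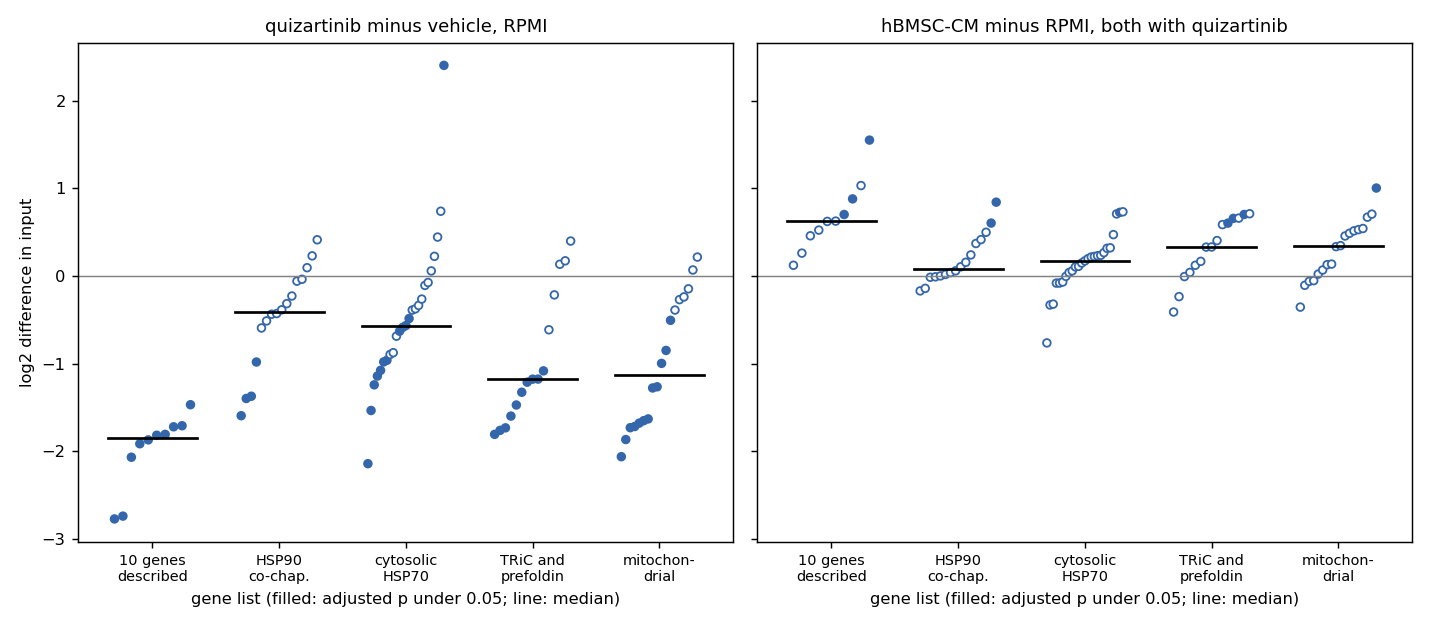
Log2 difference in input for the 10 genes and for the tested genes of 4 folding lists, quizartinib minus vehicle in RPMI (left) and hBMSC-CM minus RPMI with quizartinib in both (right). Points are genes in order of their value, filled where they passed the test, and lines are list medians. On the left the 10 genes have the lowest median, at -1.84.

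Over the 21 input libraries each member followed the mean standardised profile of the 10, of which it is a part, with Pearson r from 0.919 for HSPE1 to 0.990 for AHSA1. Outside the members and lists, the genes most like that profile were RAN, the GTPase of nuclear transport (r = 0.990), FABP5, a fatty acid binding protein (r = 0.989), SORD, sorbitol dehydrogenase (r = 0.986), CSE1L, the export receptor of importin alpha (r = 0.985), and EBNA1BP2, a nucleolar protein of ribosome assembly (r = 0.985). These values describe libraries that fall into treatment groups, which all the genes share.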

How the data were processed

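RNA-seq was analysed from input and heavy polysome fractions of MOLM-13 cultures, 42 libraries of 19.4 M to 38.8 M total counts. The authors deposited raw read counts per gene, made per the study's methods and the processing notes by poly(A) selection, adapter trimming, alignment with STAR 2.6.0a to the human genome hg38 and counting on an Ensembl annotation. The strand setting and the treatment of reads that match several genes are not given in the sources used here. Groups were taken from the labels.

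From these counts, rows of the same gene name were summed, and genes with a mean of at least 1 count and 1 CPM over all libraries (12939 genes, 99.77% of counts) were tested with edgeR 4.0.16 (R 4.3.3, TMM factors, robust quasi-likelihood fit of 14 group means over all 42 libraries, Benjamini-Hochberg adjustment). Polysome relative to input was an interaction term. Log2 CPM used a prior count of 2. Ratios were compared by exact permutation tests (scipy 1.17.1, Python 3.11.15), which cannot go below p = 0.1 at 3 against 3. The script was tested on simulated data. Replicates of a group differed by more than sampling noise. Between 2 replicates the chi-square per degree of freedom was 4.78 to 6.90 for everolimus input. It was 26.1 to 185 in the other input groups. In polysomes it was 7.10 to 16.6 with everolimus and 28.0 to 264 in the other groups. Whether the everolimus cultures were handled apart from the others was not tested. The counting intervals of single libraries cover counting error only and are not printed, since the spread between cultures is larger.

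Same-numbered replicates were checked for pairing by the correlation of their deviations from group means. Every pair was over 0.1 for 7 of the 8 input comparisons, for quizartinib in RPMI in the polysome relative to input comparisons, and for 3 of the 7 comparisons between fractions (vehicle and quizartinib in RPMI, vehicle in hBMSC-CM), so for these a fit with the replicate number as a block is given where it changed a call. In the everolimus comparison the correlations were -0.01 to 0.00. Alternatives were limma 3.58.1 with voom, DESeq2 1.42.0, RLE factors, library size only, no filter, a mean of at least 10 CPM, only the compared groups, replicate blocks, members summed with rows named as copies, and each culture left out.

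The members and lists were chosen with earlier results of these data known. Named list genes are the up to 2 largest rises and 2 largest falls per list with non-overlapping replicates in the comparisons of quizartinib with vehicle in RPMI and of the media under quizartinib. The 5 genes outside them with the highest Pearson correlation to the members' mean standardised log2 CPM over the 21 input libraries were also named. Positions are from GENCODE v44 and promoter sequences from RefSeq, both GRCh38.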

Additional observations from a re-analysis of the deposited data

Results flagged for a closer look

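The response of FKBP4 and STIP1 to quizartinib differed between the media by the interaction test (edgeR quasi-likelihood, Benjamini-Hochberg adjusted over all tested genes). The difference, hBMSC-CM minus RPMI on the log2 scale, was 1.56 for FKBP4 (adjusted p = 2.1e-05) and 1.09 for STIP1 (adjusted p = 0.0026), each in 3 of 3 sets of same-numbered cultures. The share of all tested genes with this agreement was not computed. Both calls were kept with each culture left out. STIP1 did not pass without the filter on low counts.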

How the results depend on the processing

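The fall of all 10 members with quizartinib in RPMI and the absence of a call for the combination in RPMI held under each alternative. Library size as the only scaling gave a median member difference of -0.93 log2 for quizartinib in hBMSC-CM, and for polysome against input -0.69 in RPMI with vehicle and -0.34 in hBMSC-CM with everolimus. The sign of this polysome median turned in the other 5 conditions, from 0.17 to -0.11 with quizartinib and from 0.069 to -0.16 with the combination in RPMI, and from 0.36 to -0.16 with vehicle, from 0.28 to -0.15 with quizartinib and from 0.24 to -0.17 with the combination in hBMSC-CM. It also moved the median of all tested genes for polysome relative to input with quizartinib in RPMI to 0.38 log2, from 0.15 with TMM. With a mean of at least 10 CPM the everolimus value was -0.24. With 1 culture left out, the median ran from -1.09 to -0.90 for quizartinib in hBMSC-CM, from 0.51 to 0.77 for the media under quizartinib, from -0.36 to -0.029 for the combination in RPMI, and from -0.62 to -0.40 for the combination in hBMSC-CM. For polysome relative to input it ran from -0.41 to 0.35 between the media under quizartinib, from -0.26 to 0.20 and from -0.20 to 0.092 for the combination in RPMI and hBMSC-CM, and from -0.74 to 0.017 for the difference between media. The hBMSC-CM combination changed sign without combination replicate 2 (0.0065) or quizartinib replicate 3 (0.092). For polysome against input it ran from -0.33 to 0.29 in RPMI and from -0.13 to 0.28 in hBMSC-CM with the combination. The cause of these shifts was not tested.

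In the fit with a replicate block, the median for quizartinib in RPMI was -1.85 log2 and that in hBMSC-CM -0.99. Where the numbers did not pair the samples, the block called 4 members for everolimus alone in place of 1, and 8 in place of 7 between fractions with quizartinib in hBMSC-CM. Over all tested genes it called 244 in place of 53 and 8401 in place of 7589. A block within each fraction called 1 member between the media without drug in place of 0, 6 in place of 3 between the media under quizartinib, 6 in place of 2 for the difference between media, 6 in place of 1 for everolimus and 3 in place of 0 for polysome relative to input with quizartinib in RPMI. Over all tested genes that block called 585, 2275, 876, 675 and 1513 in the same order, in place of 195, 1056, 254, 53 and 201. The other fits called 8 to 10 members for quizartinib in hBMSC-CM, 0 to 3 for the combination in hBMSC-CM and 1 to 6 for the difference between media.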
